A study of Homo sapiens with 24 samples.

Results

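Splicing factor genes of the SRSF, HNRNP, SNRP, SF3A and SF3B, U2AF and PRPF families were followed in P493 cells during release from tetracycline, with and without the telomerase inhibitor MST-312. The genes were found by symbol in the platform annotation of an Illumina expression beadchip: every probe whose symbol belonged to one of the 6 families was taken. Of 127 such probes for 75 genes, 108 probes for 67 genes were detected, out of 17882 detected probes among the 47322 on the array. A probe was taken as detected if, in 1 group or more, each of the 3 arrays gave it a detection p-value under 0.05. The HNRNP family held 50 of the detected probes (25 genes), SNRP 17 (11 genes), SRSF 14 (11 genes), SF3A and SF3B together 11 (8 genes), PRPF 10 (9 genes) and U2AF 6 (3 genes). No probe was detected for HNRNPCL1, HNRNPLL, HNRNPKP3, PRPF39, PRPF40B, SF3A1, SRSF12 or SNRPE.

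P493 is a human B cell line, immortalised by Epstein-Barr virus, in which MYC comes from a transgene that tetracycline switches off. All results are from this 1 line. In the MST-312 groups the cells had MST-312 and tetracycline for 48 h and were then moved to fresh medium with MST-312 and without tetracycline for 0, 4, 8 or 24 h. The untreated groups had the same 4 release times. The sources used here do not give their tetracycline schedule, so it cannot be told apart from MST-312 where the treatments are compared. Each of the 8 groups had 3 arrays, 24 in all. The labels number the replicates without saying that they were separate cultures, so the p-values measure the spread between these samples, which may be technical.

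Pre-mRNA splicing is carried out by the spliceosome, which is built from small nuclear ribonucleoproteins (snRNPs). SNRP genes encode proteins of these particles, among them the ring of Sm proteins that most snRNPs share; SF3A, SF3B and U2AF proteins recognise the branch site and the downstream end of the intron, and most PRPF proteins belong to the particle that joins next or to the catalytic complex. SR proteins (SRSF) bind exons and mostly favour their inclusion, whereas hnRNP proteins often oppose it, and MYC is known to drive expression of several genes of both kinds.

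Each array had 16254 to 17959 detected probes and a mean raw intensity of 526.7 to 763.8, and arrays of a group correlated at a mean of 0.987 to 0.991, so no array stood apart. Of 8 B cell markers, 6 were detected in all groups. Of 5 T cell markers 0, of 5 monocyte markers 1 and of 6 epithelial or fibroblast markers 1 were detected in all groups. MYC itself, on its brightest probe, was higher by 1.07, 1.19 and 1.31 at 4, 8 and 24 h than at 0 h in MST-312 cells and by 0.79, 0.94 and 0.70 in untreated cells (log2, limma adjusted p from 1.04e-05 to 4.37e-09). The array does not tell whether this RNA came from the transgene. At 24 h MYC was 0.38 higher with MST-312 than without (adjusted p = 0.00473), while at 0, 4 and 8 h the difference did not pass (-0.23, 0.06 and 0.03).

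Values below are log2 normalised intensities, differences are log2 differences between group means, and a call is a limma adjusted p below 0.05 over all detected probes. A gene stands by its brightest probe unless another is named. RNA was from whole cultures, so less RNA per cell and fewer expressing cells cannot be told apart.

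**Figure D1:**
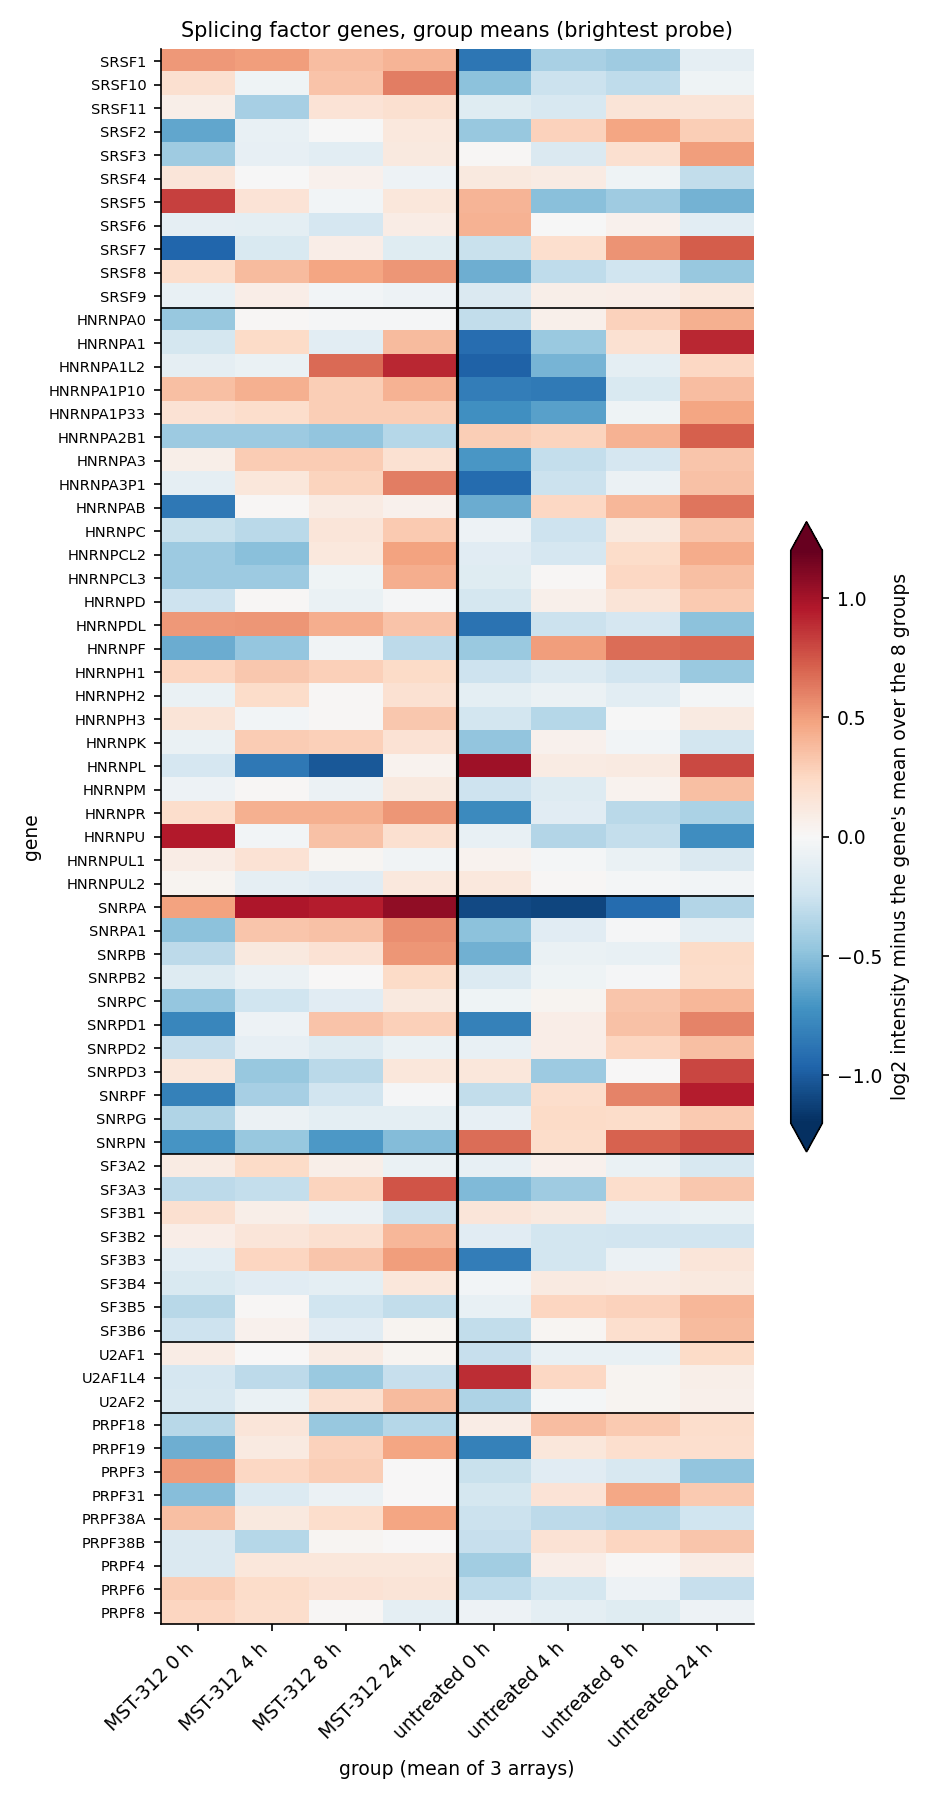
Group means of the 67 splicing factor genes (rows, brightest probe) in the 8 groups (columns, mean of 3 arrays), as log2 intensity minus the gene's own mean over the groups; black lines part the families and the treatments. Most rows darken to red from 0 to 24 h within a treatment, and single rows such as SNRPA, SRSF1 and HNRNPDL differ between the MST-312 and untreated blocks at every time.

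Comparing MST-312 with untreated cells at each time showed which splicing factor RNAs differed with the inhibitor before and during the release. At 0 h, 37 of the 108 probes were higher and 24 lower with MST-312, where 26.0% of all detected probes were higher and 25.9% lower. At 4 h, 29 were higher and 23 lower, against a background of 24.9% and 27.2%. At 8 h, 24 were higher and 31 lower, against 23.6% and 26.7%, and at 24 h, 36 were higher and 28 lower, against 26.4% and 27.6%. The shares of called splicing factor probes, 34.3% higher and 22.2% lower at 0 h and 22.2% higher and 28.7% lower at 8 h, thus lay near those of all probes, and the median difference of the 108 probes was 0.06, 0.07, 0.02 and 0.03 at the 4 times, beside 0.03, 0.01, 0.00 and 0.01 over all probes. The split depended on the scaling. When arrays were scaled to a common median in place of quantile normalisation, the median over all probes moved to -0.07, -0.24, -0.21 and -0.12, and the split became 22 higher and 26 lower at 0 h, 6 and 42 at 4 h, 5 and 44 at 8 h, and 15 and 40 at 24 h. Under cyclic loess it became 29 higher and 39 lower at 24 h. Here and below, counts under an alternative setting stand without the share of all probes called under it. They show how a count depends on the setting, not how it compares with the background.

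Over the 4 times, 14 splicing factor probes were higher and 16 lower with MST-312 at every time (13% and 14.8%, where all probes gave 13.3% and 14.9%), and 25 were called at none. The 14 were those of SRSF1, SRSF5 (2 probes), SRSF8, HNRNPDL, HNRNPH1 (2 probes), HNRNPR (3 probes), SNRPA, SF3B3, PRPF3 and PRPF38A. On the brightest probe, median scaling ended some of the calls of each of these genes except SNRPA. The 16 were those of SRSF7, HNRNPA2B1, HNRNPAB (2 probes), HNRNPL, a second HNRNPU probe, SNRPC (2 probes), SNRPF (2 probes), SNRPG, SNRPN (3 probes), U2AF1L4 and PRPF31. These shares lay at the background. The 3 SNRPN probes passed the detection filter only through untreated groups, which fixes the direction of their difference. Of the 94 splicing factor probes detected in all 8 groups, 14 were higher and 13 lower at every time (14.9% and 13.8%). The shares of all 11396 such probes were 15.6% and 16.5%.

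**Figure D2:**
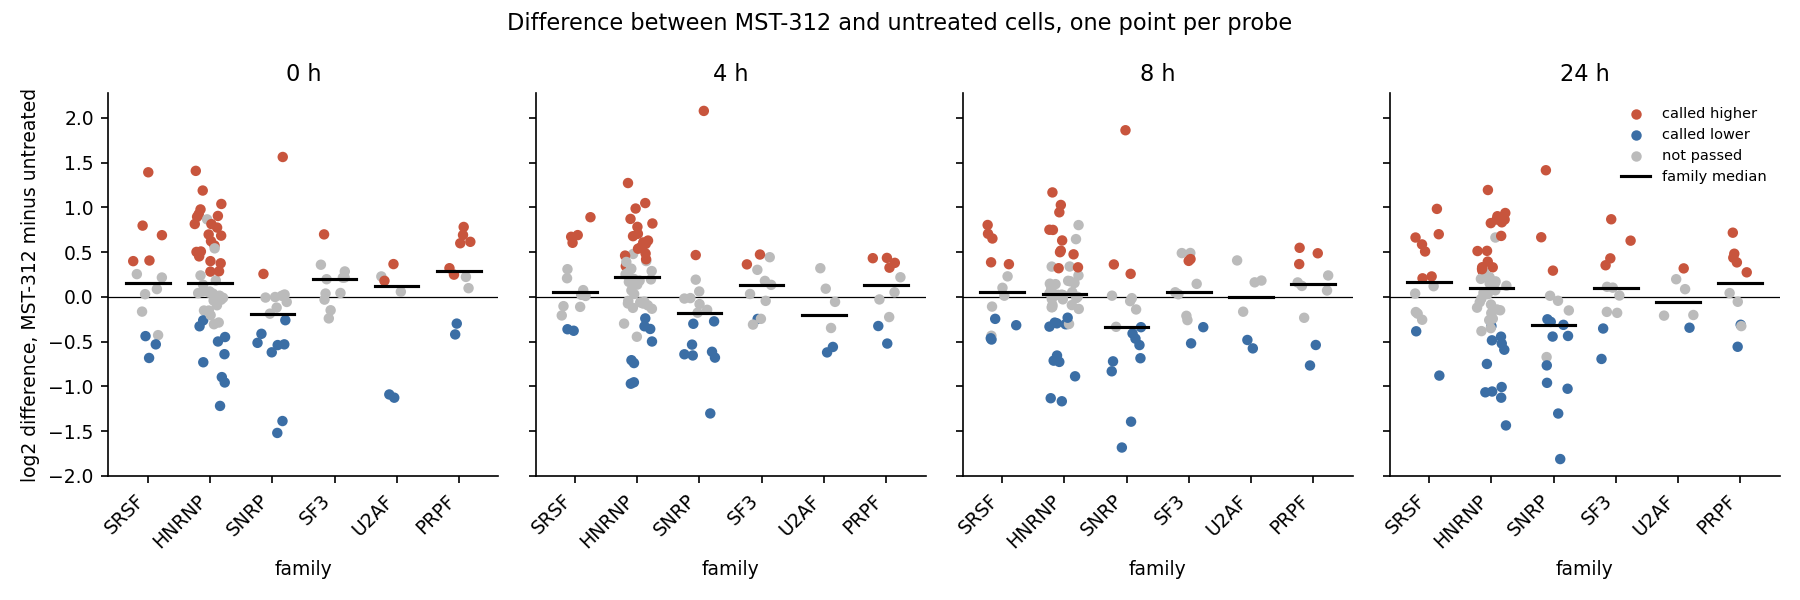
Difference between MST-312 and untreated cells (y axis, log2) for each of the 108 probes, by family (x axis) and release time (panels); colour gives the call and the black bar the family median. SNRPA stands at the top of the SNRP column at all 4 times and the 3 SNRPN probes, detected only through untreated groups, are among the low points of that column.

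Among snRNP proteins, SNRPA was higher with MST-312 at every time, while SNRPF, SNRPC and SNRPG were lower. SNRPA, the U1 snRNP protein that binds a stem loop of U1 RNA, had 10.48, 10.62 and 10.52 in MST-312 cells at 0 h, against 9.03, 8.99 and 8.90 in untreated cells. At 24 h it had 11.20, 11.03 and 11.12 in MST-312 cells, against 9.76, 9.65 and 9.70 in untreated cells. The groups were far apart at all times. The difference was 1.56, 2.08, 1.86 and 1.42 at 0, 4, 8 and 24 h (SE 0.09, adjusted p = 1.2e-11, 1.88e-13, 1.03e-12 and 4.25e-11), and no alternative setting and no single array ended any of these 4 calls. SNRPA was the only SNRP probe that was higher at every time.

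SNRPF, one of the 7 Sm ring proteins and represented by 2 probes, went the other way. It had 11.22, 11.33 and 11.21 in MST-312 cells at 0 h, against 11.74, 11.82 and 11.73 in untreated cells, and 12.04, 12.07 and 12.03 in MST-312 cells at 24 h, against 13.059, 12.998 and 12.968 in untreated cells. Every MST-312 array was below every untreated array at each of the 4 times. The difference was -0.51, -0.61, -0.83 and -0.96 (adjusted p = 3.43e-05 for 0 h and 7.57e-09 for 24 h), and -0.54, -0.64, -0.72 and -1.03 on its second probe. SNRPC, which helps U1 snRNP bind the start of an intron, was lower too, with differences of -0.41, -0.27, -0.47 and -0.28 on one probe (adjusted p = 0.00101, 0.02, 0.000332 and 0.0171) and -0.62, -0.65, -0.54 and -0.25 on the other. Leaving out 1 array ended the 4 h call of the first probe (3 arrays) and the 24 h call of both (3 and 2 arrays). SNRPG, another Sm ring protein, differed by -0.26, -0.30, -0.34 and -0.44, with a call at 0 h that 11 of 24 single arrays ended (adjusted p = 0.0453, up to 0.18), calls at 4 and 8 h that 3 and 2 ended, and a call at 24 h that none ended (adjusted p = 0.00154). SNRPD2 differed by -0.41 at 8 h and -0.44 at 24 h (adjusted p = 0.00499 and 0.00244).

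The other Sm and U2 proteins did not share a direction. SNRPD1, an Sm protein, differed by 0.03, -0.14 and -0.01 at 0, 4 and 8 h without passing, and by -0.31 at 24 h (adjusted p = 0.00373). The brightest SNRPB probe was higher by 0.26, 0.19, 0.26 and 0.29, of which the 4 h value did not pass; median scaling ended the other 3 calls, with -0.129 at 8 h, while its second probe passed at no time. No SNRPB2 probe passed, and SNRPD3, an Sm protein with a wide spread between arrays, did not pass either (-0.67 at 24 h, SE 0.28, adjusted p = 0.0514). SNRPA1, a U2 snRNP protein that partners SNRPB2, had 11.36, 11.44 and 11.35 in MST-312 cells at 0 h, against 11.40, 11.41 and 11.36 in untreated cells, and 12.58, 12.36 and 12.37 in MST-312 cells at 24 h, against 11.78, 11.72 and 11.81 in untreated cells. The groups overlapped at 0 h and were apart at 24 h, where the difference was 0.67 (adjusted p = 2.98e-06). Its 4 h and 8 h differences, 0.47 and 0.36, were called, but median scaling took them to 0.04 and -0.074.

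SNRPN is an Sm protein encoded at an imprinted locus and best known from neurons. All 3 of its probes passed the detection filter only through untreated groups, which fixes the direction of their difference, so their values are given as a description with no test. Its brightest probe was detected on none of the MST-312 arrays at 0, 4 or 8 h and had 6.737, 7.004 and 7.049 in untreated cells at 0 h. Against the detection floor it was at least 2.09-fold lower in MST-312 cells at 0 h, at least 1.5-fold lower at 4 h and at least 2.11-fold lower at 8 h. At 24 h, where 1 MST-312 array detected it, it had 5.64, 5.63 and 5.92 in MST-312 cells, against 7.04, 7.04 and 7.02 in untreated cells. A second of its probes was at least 1.47, 1.21, 1.57 and 1.81-fold lower at the 4 times. With these 3 probes, 8, 8, 9 and 10 of the 17 SNRP probes were lower and 2, 2, 3 and 3 higher, counts that the filter partly sets. Over the 14 SNRP probes detected in all 8 groups, 5, 5, 6 and 7 were lower, which is 35.7%, 35.7%, 42.9% and 50%, where 27.8%, 29.2%, 28.7% and 30.1% of all 11396 such probes were lower. The mean level of these 14 probes was 11.32 ± 0.08 in MST-312 cells and 11.47 ± 0.04 in untreated cells at 24 h (SD, n = 3 each), with no overlap at 8 and 24 h and overlap at 0 and 4 h.

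**Figure D3:**
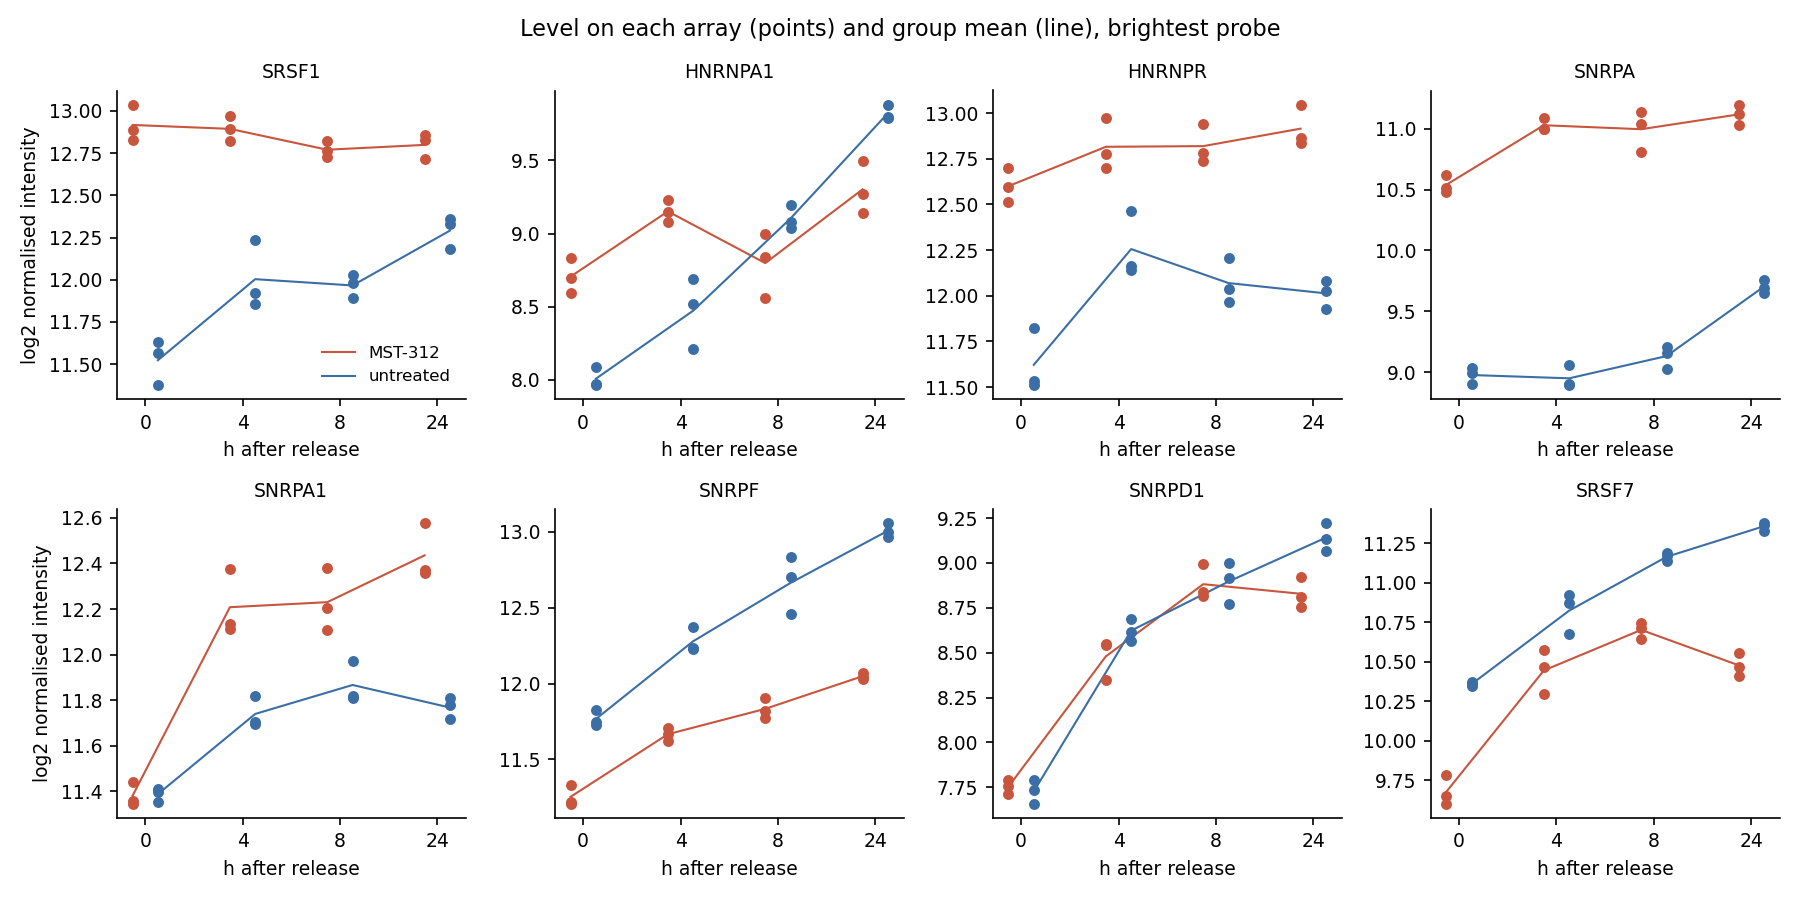
Log2 normalised intensity (y axis, scaled to each gene) of 8 genes on every array (points) by release time (x axis), MST-312 in red left of untreated in blue, with lines through group means. SRSF1, HNRNPR and SNRPA are higher and SNRPF and SRSF7 lower with MST-312 on every array at every time; SNRPD1 overlaps at 0 and 8 h, and the lines of HNRNPA1 cross between 4 and 8 h.

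Genes of the proteins that recognise the branch site and the intron end changed in both directions. Of the 11 SF3 probes, 1, 2, 2 and 4 were higher and 0, 1, 2 and 2 lower. The shares of all detected probes were 26.0%, 24.9%, 23.6% and 26.4% higher and 25.9%, 27.2%, 26.7% and 27.6% lower. SF3B1, the SF3B scaffold that clamps the branch site helix, differed on its brightest probe by 0.04, -0.04, 0.03 and -0.18 at the 4 times, none of which passed, although a dimmer SF3B1 probe was higher by 0.87 at 24 h (adjusted p = 0.00374). SF3B4, a subunit that contacts RNA before the branch site, was called lower at 4 h (-0.25, adjusted p = 0.0276, ended by leaving out any of 3 arrays). SF3B3, which holds SF3B1 in shape, was higher with MST-312: it had 9.41, 9.24 and 9.26 in MST-312 cells at 0 h, against 8.43, 8.68 and 8.69 in untreated cells. These groups did not overlap, and the difference of 0.70 (adjusted p = 1.88e-05) was the one of its 4 calls that median scaling left; it was 0.47, 0.40 and 0.35 at 4, 8 and 24 h, and leaving out untreated replicate 2 or MST-312 replicate 3 of 24 h ended the last. SF3B5, a small SF3B subunit, was lower at 8 and 24 h (-0.52 and -0.69, adjusted p = 0.00261 and 0.000162). SF3B6, which lies at the branch site adenosine, differed by -0.34 and -0.35 at the same times. Its second probe differed by -0.26 and -0.17 at these times without passing. SF3B2 was higher by 0.36, 0.42 and 0.63 at 4, 8 and 24 h, and median scaling ended each call and took the 4 h value to -0.061.

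U2AF1 and U2AF2 form the dimer that reads the intron end. U2AF1 was higher by 0.37 at 0 h (adjusted p = 0.00344, ended by median scaling at 0.188), and its other differences did not pass. U2AF2 was higher by 0.32 at 24 h (0.053 and not passed under median scaling), and its 0 h call of 0.18 had an adjusted p of 0.0466 and turned to -0.042 under median scaling and -0.005 under cyclic loess. U2AF1L4, a paralogue of U2AF1, showed the clearest difference of the 3 genes. It had 7.32, 7.25 and 7.48 in MST-312 cells at 0 h, against 8.51, 8.37 and 8.44 in untreated cells. The groups did not overlap at 0 h, and the difference was -1.09, -0.56, -0.48 and -0.34 over the 4 times (adjusted p = 7.86e-07 for 0 h and 0.0355 for 24 h, where 4 of 24 single arrays ended the call).

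Of the 10 PRPF probes, 6, 4, 3 and 5 were higher and 2 lower at each time. All detected probes gave 26.0%, 24.9%, 23.6% and 26.4% higher and 25.9%, 27.2%, 26.7% and 27.6% lower. PRPF3, a protein of the U4/U6 snRNP, had 10.74, 10.73 and 10.96 in MST-312 cells at 0 h, against 10.08, 10.06 and 9.95 in untreated cells. The groups did not overlap, with a difference of 0.78 (adjusted p = 4.35e-08); its calls at 4, 8 and 24 h (0.38, 0.49 and 0.48) did not survive median scaling, which gave -0.032, 0.113 and 0.262. PRPF38A, which enters with the tri-snRNP, was higher by 0.62, 0.43, 0.55 and 0.72, and median scaling ended the 4 and 8 h calls. PRPF18, a factor of the second catalytic step, was lower at 0, 8 and 24 h (-0.42, -0.77 and -0.56, adjusted p = 0.00959, 4.3e-05 and 0.00101). PRPF38B, a relative of PRPF38A, was lower at 4 h (-0.52, adjusted p = 0.00586). PRPF6, which bridges the tri-snRNP, was higher at 0 h (0.60, adjusted p = 0.0065), a call that median scaling or leaving out untreated replicate 2 of 0 h ended; its calls at 4 and 24 h ended likewise under median scaling. PRPF31, a U4/U6 protein, was lower (-0.30, -0.33, -0.54 and -0.31), and only its 8 h call (adjusted p = 0.000161) outlasted every single-array omission. PRPF8, the protein at the catalytic centre, was called higher at 0 and 4 h (0.32 and 0.33), but median scaling ended both calls (-0.07 at 4 h), as did leaving out any of 3 arrays at 0 h or 2 at 4 h.

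Of the SR protein probes, 5, 4, 5 and 7 of 14 were higher and 3, 2, 4 and 2 lower. Over all detected probes the shares were 26.0%, 24.9%, 23.6% and 26.4% higher and 25.9%, 27.2%, 26.7% and 27.6% lower. Of the 14, 4 were higher at all 4 times (28.6%, against 13.3% of all probes). These 4 are the probes of SRSF1 and SRSF8 and 2 probes of SRSF5, and median scaling ended some calls of each gene. SRSF1, the founding SR protein and a known MYC target, had 13.04, 12.89 and 12.83 in MST-312 cells at 0 h, against 11.63, 11.57 and 11.38 in untreated cells. At 24 h it had 12.71, 12.86 and 12.83 in MST-312 cells, against 12.36, 12.19 and 12.33 in untreated cells. The untreated arrays approached the MST-312 arrays over time without reaching them. The difference was 1.39, 0.89, 0.80 and 0.51 (SE 0.10, adjusted p = 3.18e-10, 2.08e-07, 9.28e-07 and 0.000198), and the 24 h call was ended by median scaling (0.208, adjusted p = 0.254).

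SRSF8, a paralogue of SRSF2, was higher by 0.80, 0.69, 0.71 and 0.98, and SRSF5 by 0.41, 0.67, 0.39 and 0.70. Median scaling ended the SRSF8 calls at 4 and 8 h, and left SRSF5 called at 0 h only, with -0.004 at 8 h. SRSF10, an SR protein that represses splicing when it loses its phosphates, was higher by 0.69, 0.65 and 0.66 at 0, 8 and 24 h, the 8 h call being ended by median scaling (0.34, adjusted p = 0.136). Its second probe differed by 0.255, 0.31, 0.23 and 0.12 at 0, 4, 8 and 24 h and passed at no time. SRSF7, which also takes part in mRNA export, went down: it had 9.79, 9.60 and 9.65 in MST-312 cells at 0 h, against 10.36, 10.37 and 10.35 in untreated cells, and 10.41, 10.56 and 10.47 in MST-312 cells at 24 h, against 11.38, 11.33 and 11.37 in untreated cells. The groups did not overlap at any time, and the difference was -0.68, -0.38, -0.46 and -0.88 (adjusted p = 7.36e-07, 0.000667, 9.34e-05 and 1.97e-08), kept under every setting. SRSF2 was lower at 4 and 8 h (-0.36 and -0.48, adjusted p = 0.000439 and 2.42e-05). SRSF3, an SR protein with a role in mRNA export and cell growth, was called lower at 0, 8 and 24 h (-0.44, -0.32 and -0.38, adjusted p = 0.0064, 0.0441 and 0.0145), the 8 h call was ended by 14 of 24 single arrays, and the 24 h call by leaving out untreated replicate 1 or MST-312 replicate 3 of that time.

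Of all detected probes, 26.0%, 24.9%, 23.6% and 26.4% were higher and 25.9%, 27.2%, 26.7% and 27.6% lower with MST-312. Of the hnRNP probes, 21, 17, 11 and 16 of 50 were higher and 9, 8, 12 and 11 lower. Their median difference was 0.16, 0.23, 0.03 and 0.10, and -0.01, -0.20, -0.32 and -0.12 under median scaling, so the family as a group has no direction that holds under both. HNRNPR, which binds RNA in nucleus and cytoplasm, was higher on all 3 probes at all times, by 0.98, 0.56, 0.75 and 0.90 on the brightest (adjusted p = 3.29e-07 for 0 h and 9.26e-07 for 24 h; 4 and 8 h ended by median scaling). HNRNPDL, a relative of HNRNPD, had 11.37, 11.39 and 11.12 in MST-312 cells at 0 h, against 9.93, 9.95 and 9.78 in untreated cells. These groups did not overlap, and the difference was 1.41, 0.78, 0.63 and 0.83, with the 8 h call ended by median scaling (0.234). HNRNPL, which binds CA-rich RNA, was lower (-1.22, -0.95, -1.13 and -0.75), and leaving out untreated replicate 2 or MST-312 replicate 3 of 24 h ended the last call. HNRNPAB, a factor related to HNRNPD, was lower (-0.26, -0.24, -0.30 and -0.59), of which the 24 h call (adjusted p = 2.66e-05) outlasted every single array left out.

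HNRNPF, which binds runs of G, had 1 dim probe that no MST-312 group detected on all 3 arrays. It passed the filter only through untreated groups, so its lower values with MST-312 are a description. It had 5.69, 5.47 and 5.69 in MST-312 cells at 0 h, against 5.75, 5.87 and 5.69 in untreated cells, and 6.21, 5.74 and 5.74 in MST-312 cells at 24 h, against 6.97, 6.97 and 6.78 in untreated cells. The groups lay next to each other at 0 h and apart at 24 h. HNRNPH1, a relative of HNRNPF, was higher by 0.68 at 24 h (adjusted p = 9.76e-06) and, in calls that median scaling ended, at 0, 4 and 8 h. HNRNPA0 was lower at 8 and 24 h (-0.29 and -0.44, adjusted p = 0.00633 and 0.000116). The brightest HNRNPM probe passed at no time.

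HNRNPA1, a repressor of many exons and a known MYC target, changed sides during the release. It had 8.59, 8.69 and 8.83 in MST-312 cells at 0 h, against 8.08, 7.96 and 7.97 in untreated cells. At 24 h it had 9.50, 9.27 and 9.14 in MST-312 cells, against 9.88, 9.79 and 9.79 in untreated cells. Every MST-312 array was above the untreated ones at 0 h and below them at 24 h. The difference was 0.70 at 0 h and 0.68 at 4 h (adjusted p = 6.65e-05 and 8.99e-05; the second ended by median scaling at 0.295) and -0.52 at 24 h (adjusted p = 0.00119). At 8 h it was called lower with an adjusted p of 0.0443 that 12 of 24 single arrays raised past the threshold. Its second probe was higher by 0.93 and 0.99 at 0 and 4 h and differed by -0.38 at 24 h without passing. A probe annotated to the pseudogene HNRNPA1P10, whose near-identical sequence may share RNA with HNRNPA1, was higher by 1.19, 1.27 and 0.48 at 0, 4 and 8 h and differed by 0.05 at 24 h without passing, so it did not show the lower values of HNRNPA1 at 8 and 24 h. Its 8 h call was ended by median scaling (0.083).

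Probes for one gene did not always move together. Of the 29 genes with several detected probes, 2, 0, 2 and 2 had probes called in opposite directions at 0, 4, 8 and 24 h: HNRNPU and HNRNPK at 0 h, HNRNPA2B1 and HNRNPK at 8 h, and HNRNPA2B1 and HNRNPU at 24 h. HNRNPA2B1, a close relative of HNRNPA1, had 12.66, 12.62 and 12.55 on its brightest probe in MST-312 cells at 24 h, against 13.81, 13.60 and 13.59 in untreated cells. Its second probe had 11.46, 11.56 and 11.65 in MST-312 cells at 24 h, against 10.59, 10.85 and 10.75 in untreated cells. Neither pair of groups overlapped, and the differences were -1.06 and 0.82 (adjusted p = 6.26e-09 and 1.03e-07). The brightest probe was also lower at 0, 4 and 8 h (-0.73, -0.71 and -0.89), and the 0.33 of the second probe at 8 h was ended by median scaling (-0.056).

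HNRNPU, a nuclear scaffold protein, had 11.60, 11.36 and 11.97 on its brightest probe in MST-312 cells at 0 h, against 10.62, 10.54 and 10.65 in untreated cells. Its second probe had 6.94, 6.90 and 6.92 in MST-312 cells at 0 h, against 7.83, 7.82 and 7.80 in untreated cells. The first pair differed by 1.04 and the second by -0.90 (adjusted p = 0.00409 and 3.49e-06), and at 24 h by 0.94 and -1.13. Which transcripts each probe reads was not analysed here.

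**Figure D4:**
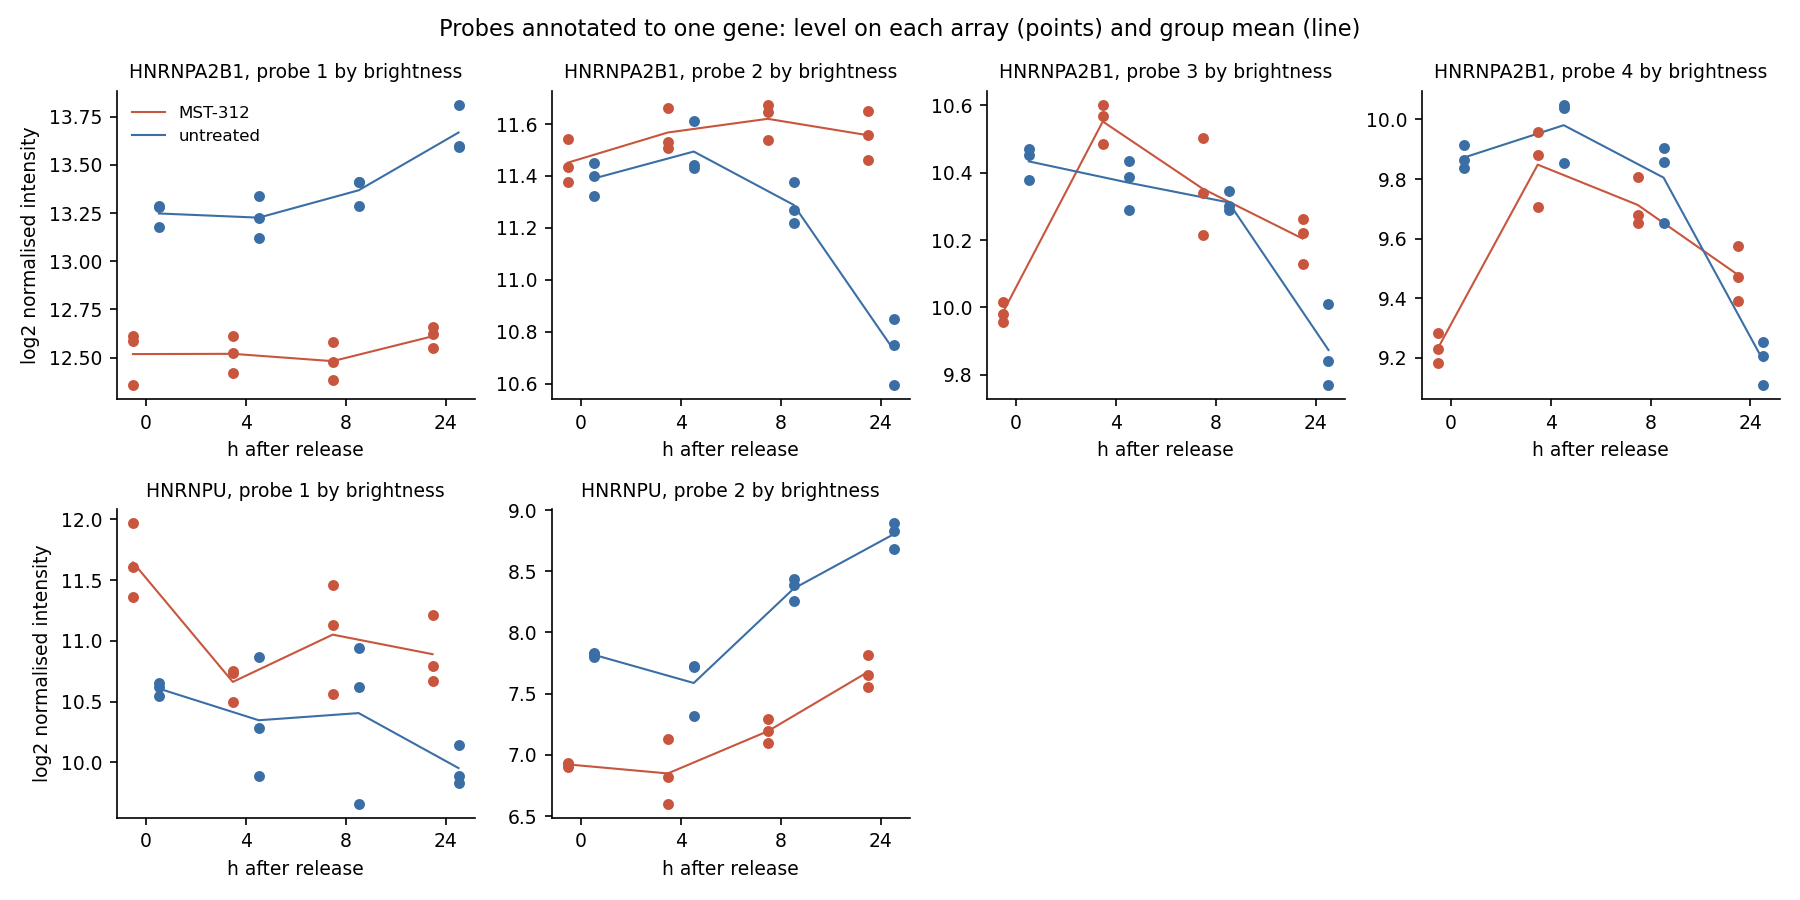
Log2 normalised intensity (y axis) on every array (points) by release time (x axis) for the 4 HNRNPA2B1 and the 2 HNRNPU probes, MST-312 in red left of untreated in blue, with lines through group means. The brightest HNRNPA2B1 probe is lower with MST-312 at all times and the second is higher at 24 h; the 2 HNRNPU probes lie on opposite sides at 0 and 24 h.

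Comparing each later time with 0 h within a treatment asked how these RNAs changed over the release. In MST-312 cells the removal of tetracycline came with fresh medium and time in culture, so these cannot be told apart. Splicing factor probes rose far more often than they fell, in both treatments. In MST-312 cells 27 rose and 4 fell at 4 h, where 14.9% of all probes rose and 14.2% fell. At 8 h 31 rose and 6 fell, against 15.9% and 17.1%, and at 24 h 44 rose and 6 fell, against 21.5% and 21.7%. In untreated cells 35 rose and 9 fell at 4 h, against 18.8% and 17.4%, 47 rose and 8 fell at 8 h, against 21.8% and 21.1%, and 62 rose and 11 fell at 24 h, against 26.6% and 25.6%. The median change of the 108 probes at 4, 8 and 24 h was 0.11, 0.15 and 0.25 in MST-312 cells and 0.15, 0.30 and 0.44 in untreated cells, where the median over all probes lay between -0.01 and 0.02. Under median scaling the 24 h split was 39 and 3 in MST-312 cells and 64 and 8 in untreated cells, and the MST-312 split at 4 h was 10 and 4.

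By gene, 27 of 67 were higher and 5 lower at 24 h than at 0 h in MST-312 cells, and 40 higher and 6 lower in untreated cells. Counted by probe over all detected probes, 21.5% rose and 21.7% fell in MST-312 cells, and 26.6% and 25.6% in untreated cells. In the SNRP family no probe fell, with 11 of 17 probes higher in MST-312 cells and 13 in untreated cells; the median change was 0.58 in MST-312 cells and 0.45 in untreated cells. SNRPD1 had 8.92, 8.76 and 8.81 in MST-312 cells at 24 h, against 7.76, 7.79 and 7.71 at 0 h, and 9.13, 9.07 and 9.22 in untreated cells at 24 h, against 7.66, 7.79 and 7.73 at 0 h. It rose by 1.07 in MST-312 cells and 1.41 in untreated cells (adjusted p = 3.28e-09 and 3.17e-11). SNRPF rose by 0.80 in MST-312 cells and 1.24 in untreated cells, SNRPB by 0.84 and 0.81, SNRPA1 by 1.05 and 0.38, and SNRPA by 0.58 and 0.73.

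HNRNP probes rose in 16 of 50 cases in MST-312 cells (1 fell) and 29 of 50 in untreated cells (3 fell). The shares of all detected probes that rose were 21.5% in MST-312 cells and 26.6% in untreated cells, and 21.7% and 25.6% fell. HNRNPA1 rose by 0.60 in MST-312 cells (adjusted p = 0.000477) and by 1.82 in untreated cells (adjusted p = 1.91e-10), where no other brightest probe rose as much. HNRNPAB rose by 0.91 in MST-312 cells and 1.24 in untreated cells. Of the SR proteins, SRSF7 rose by 0.80 in MST-312 cells and 1.00 in untreated cells and SRSF2 by 0.75 and 0.76, whereas SRSF5 fell by 0.68 in MST-312 cells and by 0.97 in untreated cells. SF3A3, the subunit that ties SF3A to U2 snRNP, rose by 1.07 in MST-312 cells and 0.86 in untreated cells, SF3B3 by 0.62 and 0.97, and PRPF19, the ubiquitin ligase of the catalytic spliceosome, by 1.06 and 1.01. SF3B1 was lower at 24 h than at 0 h in MST-312 cells (-0.45, adjusted p = 5.98e-05) and in untreated cells (-0.23, adjusted p = 0.0132), but neither call held under median scaling (adjusted p = 0.0985 and 0.695), and leaving out untreated 0 h replicate 1 or 2 ended the second.

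The test of the interaction, the change after release in MST-312 cells minus that in untreated cells, showed where the treatments differed in their response. At 4 h the interaction was positive for 7 probes and negative for 4, where it was positive for 8.04% and negative for 8.24% of all probes. A positive value is a larger rise or a smaller fall with MST-312. At 8 h the counts were 3 and 5, against 7.44% and 7.38%, and at 24 h 9 and 17, against 11% and 12%. A fit that blocked on replicate number inside each time called 17 probes at 4 h. The median of the 108 probes at 24 h was -0.12, and -0.03 over all probes. These counts depended on scaling, at 0 and 5 at 4 h, 0 and 5 at 8 h and 5 and 10 at 24 h under median scaling, and 10 and 3 at 4 h and 7 and 5 at 8 h under cyclic loess. The HNRNP family, with 50 of the 108 probes, held 11 of the 17 negative interactions at 24 h. It also held positive ones, of HNRNPA2B1 and HNRNPK probes. Among the 11 were the probes of HNRNPA1, HNRNPA1P10 and HNRNPA1P33, which may share RNA. Dim HNRNPF and HNRNPM probes, near background in MST-312 cells, were also among them.

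HNRNPA1 had the lowest interaction of the brightest probes, -1.003 at 8 h and -1.219 at 24 h (adjusted p = 0.000493 and 3.46e-05), and its second probe had -0.95 and -1.31. SRSF1 changed by -0.02, -0.15 and -0.12 at 4, 8 and 24 h in MST-312 cells, which did not pass, and rose by 0.48, 0.44 and 0.77 in untreated cells. Its interaction was -0.50, -0.59 and -0.89 (adjusted p = 0.0172, 0.00702 and 0.000104), and leaving out MST-312 replicate 1 of 0 h, untreated replicate 3 of 0 h or untreated replicate 2 of 4 h ended the first. HNRNPDL had -0.63, -0.78 and -0.58, while its second probe had -0.20, -0.45 and -0.11, none of which passed. HNRNPA3, a relative of HNRNPA1, had -0.92 at 24 h (adjusted p = 0.00452): it had 9.35, 9.42 and 9.62 in MST-312 cells at 24 h, against 9.56, 9.22 and 9.29 at 0 h, and 9.93, 9.53 and 9.37 in untreated cells at 24 h, against 8.28, 8.79 and 8.67 at 0 h. These SR and hnRNP genes were already higher in MST-312 cells at 0 h, so the interaction is measured from unequal starting levels.

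Positive interactions at 24 h were found for SNRPA1 (0.67, adjusted p = 0.000688) and SRSF6, an SR protein that changed by 0.20 in MST-312 cells without passing and fell by 0.54 in untreated cells (interaction 0.74, adjusted p = 8.49e-05). SRSF6 too started from unequal levels, being lower with MST-312 at 0 h (-0.53, adjusted p = 1.33e-05); it was also called lower at 8 h (-0.24, adjusted p = 0.0157) and higher at 24 h (0.21, adjusted p = 0.0357), calls that 2 and 4 single arrays ended, and median scaling took the 24 h value to -0.08. Median scaling took the SNRPA1 adjusted p to 0.0765. The 3 dimmer HNRNPA2B1 probes had interactions of 0.76, 0.78 and 0.93 and fell by 0.66, 0.56 and 0.68 in untreated cells, unlike the brightest.

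**Figure D5:**
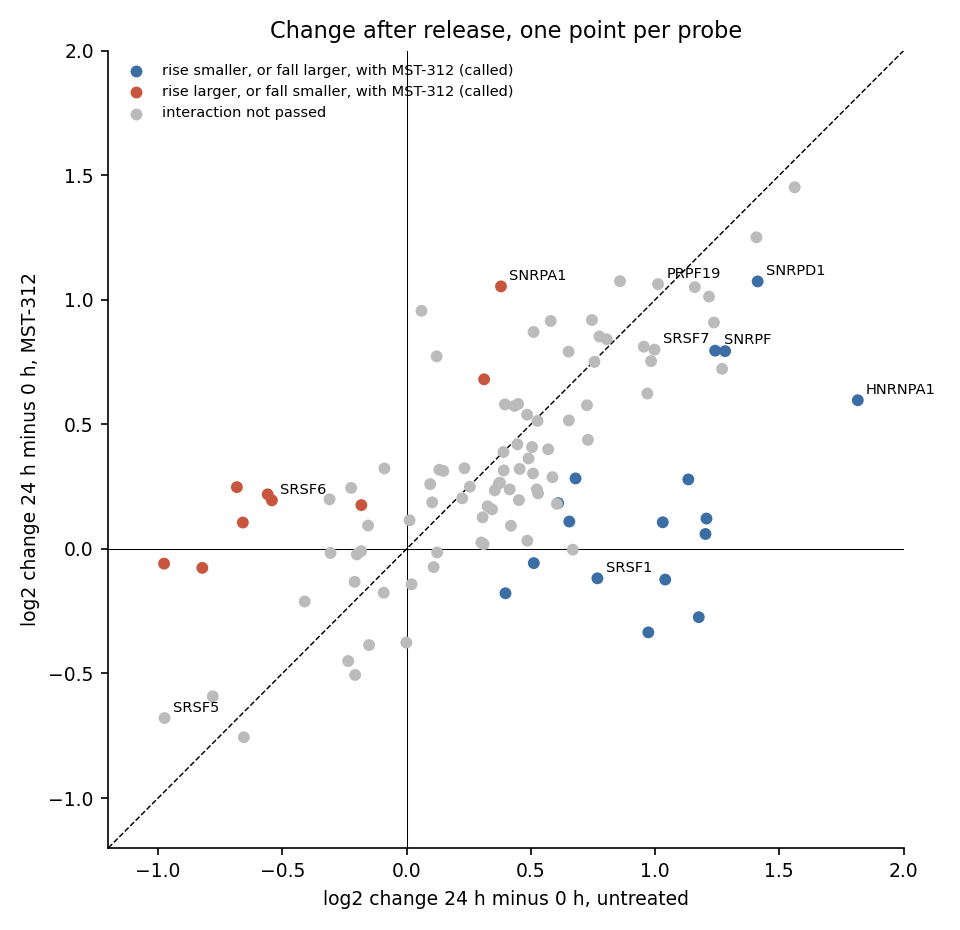
Change from 0 to 24 h in MST-312 cells (y axis, log2) against that in untreated cells (x axis, log2) for each of the 108 probes; colour marks the 26 called interactions and the dashed line equal change. Most points lie to the right of 0 and above 0, with HNRNPA1 and SRSF1 far below the line and SNRPA1 above it; both axes rest on different arrays.

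RefSeq promoter windows (GRCh38.p14, 250 bases before to 50 after a start) were available for 58 of the 67 genes, 81 windows in all, with none for HNRNPA1, HNRNPA1P10, HNRNPA1P33, HNRNPA3P1, HNRNPCL3, PRPF3, SF3B3, SNRPD1 or SRSF2. They were searched for the canonical E-box that MYC with MAX can bind, CACGTG, which reads the same on both strands. It was in 10 of the 81 windows (12.3%) and in 7.25% of all 35097 windows. HNRNP windows held it in 8 of 31 (25.8%) and SF3 windows in 2 of 8 (25%), and no window of the SRSF, SNRP, U2AF or PRPF genes did. Of the 8 genes with such a window, 1 was higher and 1 lower at 24 h than at 0 h in MST-312 cells, and 5 were higher and 1 lower in untreated cells. Of the 50 without, 21 were higher and 3 lower in MST-312 cells, and 28 were higher and 4 lower in untreated cells. Among all detected probes 21.5% were higher and 21.7% lower in MST-312 cells, and 26.6% and 25.6% in untreated cells. The HNRNPA3, HNRNPM and SF3B1 windows are shown because the brightest probes of their genes changed in different ways after release. HNRNPA3 changed by 0.11 in MST-312 cells (not passed) and rose by 1.03 in untreated cells. HNRNPM changed by 0.18 in MST-312 cells (not passed) and rose by 0.61 in untreated cells. SF3B1 was lower in both, but neither call held under median scaling and its other probes did not pass. Capitals mark CACGTG, and a match describes the letters only. The windows are chr2:177212544-177212843 on the plus strand for HNRNPA3, chr19:8444725-8445024 on the plus strand for HNRNPM and chr2:197435044-197435343 on the minus strand for SF3B1, with the motif starting 71, 42 and 43 bases before the start.
HNRNPA3: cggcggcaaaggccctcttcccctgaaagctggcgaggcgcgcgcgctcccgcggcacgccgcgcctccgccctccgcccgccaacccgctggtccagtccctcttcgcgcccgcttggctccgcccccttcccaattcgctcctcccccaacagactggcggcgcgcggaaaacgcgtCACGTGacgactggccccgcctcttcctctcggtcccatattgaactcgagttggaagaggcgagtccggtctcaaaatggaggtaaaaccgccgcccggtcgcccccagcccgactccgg
HNRNPM: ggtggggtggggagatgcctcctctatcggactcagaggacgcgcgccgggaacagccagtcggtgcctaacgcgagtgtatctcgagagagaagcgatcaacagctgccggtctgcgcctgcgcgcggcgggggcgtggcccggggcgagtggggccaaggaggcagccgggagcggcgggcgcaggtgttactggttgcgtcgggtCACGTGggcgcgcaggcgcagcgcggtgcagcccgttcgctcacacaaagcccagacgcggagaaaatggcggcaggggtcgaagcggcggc
SF3B1: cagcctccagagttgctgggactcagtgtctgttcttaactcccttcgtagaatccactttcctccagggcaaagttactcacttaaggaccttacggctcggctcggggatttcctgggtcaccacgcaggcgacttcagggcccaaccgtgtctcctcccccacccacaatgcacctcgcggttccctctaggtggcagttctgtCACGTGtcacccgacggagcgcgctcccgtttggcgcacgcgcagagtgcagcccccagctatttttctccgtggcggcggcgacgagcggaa

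The core motif of ETS factors, CCGGAA on either strand (that is, also TTCCGG), was in 29 of the 81 windows (35.8%) and in 17.3% of all windows. Overlapping matches were counted separately. SNRP windows held it in 10 of 18 (55.6%), SF3 and PRPF windows in 5 of 8 each (62.5%), SRSF windows in 2 of 13 (15.4%), HNRNP windows in 6 of 31 (19.4%) and U2AF windows in 1 of 3. No test was made of these shares. The SNRPC window, chr6:34757255-34757554 on the plus strand, is shown because SNRPC was lower with MST-312 at all times and had 3 matches, a pair of which overlap on opposite strands; capitals mark them.
SNRPC: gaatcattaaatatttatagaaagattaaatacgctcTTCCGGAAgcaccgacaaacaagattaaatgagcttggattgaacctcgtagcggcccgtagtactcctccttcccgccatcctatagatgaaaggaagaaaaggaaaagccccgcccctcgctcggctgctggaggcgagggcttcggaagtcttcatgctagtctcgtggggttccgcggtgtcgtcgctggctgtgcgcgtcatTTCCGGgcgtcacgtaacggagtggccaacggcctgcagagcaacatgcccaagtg

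A further 158 genes of the splicing machinery outside the 6 families were listed by complex, of which 143 were tested. With MST-312, 41 of them were higher and 31 lower at 0 h, where 26.0% and 25.9% of all probes were, and 42 were higher and 43 lower at 24 h, where 26.4% and 27.6% were, so these counts lay near the background. From 0 to 24 h, 51 rose and 20 fell in MST-312 cells (21.5% and 21.7% of all probes), and 60 rose and 20 fell in untreated cells (26.6% and 25.6% of all probes). The snRNP assembly genes, which load the Sm ring onto snRNA, rose without exception among those called: 12 of 18 rose and 0 fell in MST-312 cells (median 0.51), and 14 rose and 0 fell in untreated cells (median 0.75). GEMIN5, which selects snRNAs for assembly, rose by 2.09 in untreated cells, and PRMT5, which methylates Sm proteins, by 1.22. With MST-312, 5, 6, 7 and 9 of the 18 were lower at the 4 times and 2, 3, 1 and 3 higher, where 25.9%, 27.2%, 26.7% and 27.6% of all probes were lower, so the 0 h count lay near the background; GEMIN8, a subunit of the same SMN complex, differed by -1.56 at 0 h and -2.08 at 24 h, and CLNS1A, a chaperone of Sm proteins, by -0.88 and -1.67. Among LSm proteins, the Sm relatives of U6 snRNP and mRNA decay, 2, 4, 6 and 4 of 10 were lower and 1 higher at each time, against the same shares of all probes. CLK1, a kinase that phosphorylates SR proteins, was higher with MST-312 by 1.46 at 0 h and 1.18 at 24 h (adjusted p = 7.98e-10 and 1.67e-08).

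The other lists held members that moved both ways with MST-312 at 24 h, where 26.4% of all probes were higher and 27.6% lower. Among other snRNP proteins, 3 of 19 were higher and 9 lower, among SR protein kinases and phosphatases 3 of 7 were higher and 1 lower, and among helicases 3 of 15 were higher and 5 lower. In the PRP19 complex and its partners 7 of 19 were higher and 2 lower, in the exon junction complex 3 of 6 and 1, among other SR-related proteins 6 of 16 and 3, and among other regulators of splicing 13 of 33 and 9. TARDBP, an RNA-binding protein that keeps cryptic exons out, was higher by 2.16 at 0 h and 2.18 at 24 h, and RNPC3, a protein of the minor spliceosome, by 2.27 at 0 h. SFPQ, a partner of several splicing factors, differed by -1.58 at 24 h and rose by 1.39 from 0 to 24 h in untreated cells.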

How the data were processed

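Raw probe intensity and detection p-values were taken as the authors deposited them, 1 column of each per array, with no column left unused (0); per the file headers the intensities were not normalised. The extraction followed Trizol and RNeasy with DNase, and biotinylated cRNA was hybridised, per the labels' protocols. The authors also deposited a processed table; its intensity values rank exactly like the raw ones, and the sources used here do not give its normalisation. Replicates were deposited as separate arrays.

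Background was corrected and arrays were quantile normalised with neqc (offset 16, log2), from deposited values, in R 4.3.3 with limma 3.58.1. Probes with a detection p-value below 0.05 on all 3 arrays of a group were kept, 17882 in all. One limma model of 8 group means over 24 arrays (16 residual degrees of freedom) gave 13 comparisons, with Benjamini-Hochberg adjustment over all kept probes. The script was tested on simulated data. The number of arrays limits the precision.

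Symbols came from the platform annotation (30113 probes with 1 symbol, 8 with several, 17201 with none), promoters from RefSeq. Members, lists and tests were chosen with earlier results of these data known. In each family and comparison the rule named up to 2 called genes with the largest rise and up to 2 with the largest fall (1 each for 24 h release and interaction), and SRSF1, SRSF3, HNRNPA1, HNRNPA2B1, SNRPD3, SF3B1, U2AF1, U2AF2 and PRPF8 always; other members are named as examples. A probe not detected on any array of a group received a bound against the lowest detected signal.

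Same-numbered arrays of a time deviated together in all 12 pairs (correlation 0.142 to 0.478), so replicate number was tried as a block. Other alternatives were no background correction, the authors' values, median scaling, cyclic loess, other filters, 1 probe per gene, another offset and spread model, only the arrays compared, and leaving out each array.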

Additional observations from a re-analysis of the deposited data

Results flagged for a closer look

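The change after release differed between MST-312 and untreated cells, by the limma interaction test (MST-312 change minus untreated change, log2), for 26 gene and time combinations among the named genes. Some of these genes were named for the size of their called interaction at 24 h, so the selection partly sets this count. It shows no excess over all probes. Among all 108 splicing factor probes, the called share at 4 and 8 h was below that of all detected probes in both directions. At 24 h it was below for positive and above for negative interactions. HNRNPA1 had -1.003 at 8 h and -1.219 at 24 h, and probes of its near copies had -0.713 at 8 h and -1.143 at 24 h (HNRNPA1P10) and -1.085 at 24 h (HNRNPA1P33). At 24 h HNRNPA1P10 changed by 0.06 in MST-312 cells and 1.203 in untreated cells. HNRNPDL had -0.626, -0.778 and -0.576 and SRSF1 had -0.503, -0.589 and -0.885 at 4, 8 and 24 h. The interaction of the second HNRNPDL probe passed at none of these times.

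HNRNPF had -0.818 at 4 h, which leaving out MST-312 4 h replicate 3 ended, and -0.855 at 24 h; its dim probe passed the detection filter only through untreated groups, so these values rest largely on background signal in MST-312 cells. PRPF3 had -0.401 at 4 h, SF3B6 had -0.397 at 24 h, SNRPF had -0.446 at 24 h and U2AF1 had -0.569 at 24 h. The second probes of SF3B6 and U2AF1 had -0.137 and -0.142 at 24 h and did not pass. SNRPD1 had -0.339 at 24 h, a call that 13 of 24 single arrays ended. The calls of SF3B6, SNRPF, U2AF1 and SNRPD1 did not pass under median scaling.

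The interaction was positive for SNRPA (0.515 at 4 h), SNRPA1 (0.475 at 4 h and 0.674 at 24 h), SNRPN (0.71 at 4 h), SRSF6 (0.419 at 4 h and 0.738 at 24 h) and U2AF1L4 (0.609 at 8 h and 0.746 at 24 h). SNRPN was not detected on the MST-312 arrays at these times, so its value sets a change at background against a measured one and shows no difference in response. At 24 h U2AF1L4 changed by -0.08 in MST-312 cells and -0.82 in untreated cells. Under median scaling no positive interaction passed at 4 or 8 h, and that of SNRPA1 did not pass at 24 h.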

How the results depend on the processing

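Median scaling moved most. The number of called splicing factor probes became 14 for MST-312 4 h against 0 h, 22 for 8 h, and 5, 5 and 15 for the interaction at 4, 8 and 24 h. It turned the sign of U2AF2 at 0 h (-0.042), PRPF3 (-0.032), PRPF8 (-0.07) and SF3B2 (-0.061) at 4 h, SNRPA1 (-0.074), SNRPB (-0.129) and SRSF5 (-0.004) at 8 h, and SRSF6 at 24 h (-0.08); cyclic loess turned U2AF2 at 0 h (-0.005). With 1 probe per gene, over fewer probes, 39 and 34 genes were called for treatment at 0 and 4 h, 23 and 33 for MST-312 8 and 24 h, 47 for untreated 24 h, and 16 for the 24 h interaction. The trend and robust spread model called 13 at the 8 h interaction. The replicate block called 64, 62 and 61 probes for treatment at 0, 4 and 8 h, 70 for MST-312 vs untreated at 24 h and, within time (an alternative chosen after seeing the data), 17 at the 4 h interaction. Of 290 calls of named genes, 290 were kept with the replicate block, with the authors' values and without background correction (the last 2 are not separate checks), 273 under cyclic loess, 267 without the filter, 251 with only the arrays compared and 213 under median scaling. Leaving out 1 array gave 45 to 66 called probes for treatment, 26 to 52 for MST-312 release, 36 to 76 for untreated release and 7 to 26 for interactions. The cause of these shifts was not tested. Values of probes near background, such as those of SNRPN and HNRNPF, include arrays that did not detect them.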
